A study of Mus musculus with 10 samples.

Results

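Macrophages hold on to their surroundings through integrins and through podosomes, small actin-rich adhesions at the cell's underside. The 35 genes described here encode integrin chains, the proteins that link them to actin, the kinases that signal from them, podosome scaffolds, actin cross-linkers and the hyaluronan receptor Cd44. They were chosen by symbol, with the condition that the mean normalized read count over the 10 libraries be at least 10. The choice was made with earlier results of these data known. Shares of members that passed are therefore descriptions, also where shares of all genes stand beside them. All 35 had a row in the deposited table and met that condition, among 12455 genes that met it and 57010 gene identifiers in all. The lowest mean among them was 54.8, for Fscn1, so none lay near the minimum.

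RNA was sequenced from macrophages grown out of mouse bone marrow over 7 days with the growth factor M-CSF. The cells came from wild-type mice (WT) or from mice without the actin regulator WASp (WKO). The groups were 2 WT unconfined libraries (replicates 1 and 3), 2 WKO unconfined libraries (replicates 1 and 3), 3 WT confined libraries (replicates 2, 3 and 6) and 3 WKO confined libraries (replicates 1, 2 and 5), and values below follow this order of replicates. Confined cells had spent 1 h beneath PDMS micropillars that left a height of 3 µm, and unconfined cells are labelled as controls. All groups share the M-CSF culture. The labels name no allele, sex or age, do not say whether the WKO cells lack WASp from birth or in other cell types, and do not say whether replicates were separate mice or cultures, so p-values measure the spread between these libraries, which may be technical. No batch is given.

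Integrins are receptors made of an alpha and a beta chain, and leukocytes are marked by those that share the beta-2 chain. Talin and kindlin bind the beta chain's tail and switch the receptor on, and vinculin then joins talin to actin. In macrophages these proteins form a ring around the podosome core, an actin column built by the Arp2/3 complex under the control of WASp. Macrophages without WASp are known to form few or no podosomes.

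Library totals were 13295701 to 19329908 reads, and 3 reads, taken as the floor of detection, were worth a normalized read count of 2.35 to 3.59. Was, the gene of WASp, stood at 1308 and 1639 in unconfined WT, 154 and 141 in unconfined WKO, 1618, 1569.6 and 1649 in confined WT and 98.9, 96.9 and 125 in confined WKO cells, in keeping with the labels in all 10. All 9 macrophage markers, Itgam among them, were read in every library, with sums of 202159 to 226183 in WT and 259174 to 334641 in WKO libraries. Lyz2 was the largest part, at 100507 to 132963 in WT and 157886 to 200203 in WKO libraries. Csf1r and Mertk were also higher in every WKO library than in any WT one. Cd14 went the other way in unconfined cells, at 3723 and 4786 in WT and 2885 and 3189 in WKO libraries. Markers of other marrow cells were present and mostly higher in WKO libraries. The 10 neutrophil and progenitor markers summed to 6987 and 10876 in unconfined WT, 30172 and 25028 in unconfined WKO, 6357, 7962 and 2568 in confined WT and 21947, 28214 and 7015 in confined WKO cells. The 6 B cell markers summed to 417 to 1041 in WT and 1794 to 6531 in WKO libraries, mostly Ighm and Igkc. The 12 stromal markers summed to 812 and 1672 in unconfined WT, 2074 and 2388 in unconfined WKO, 183, 174 and 664 in confined WT and 2939.7, 746 and 9078 in confined WKO cells. The 4 mast cell and basophil markers summed to 0 to 73.9 in WT and 3.59 to 152 in WKO libraries. T and NK cell markers summed to at most 18.2, with Trac at 0 in all libraries. These are bulk libraries, so fewer cells of a type and less RNA per cell cannot be told apart.

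**Figure D1:**
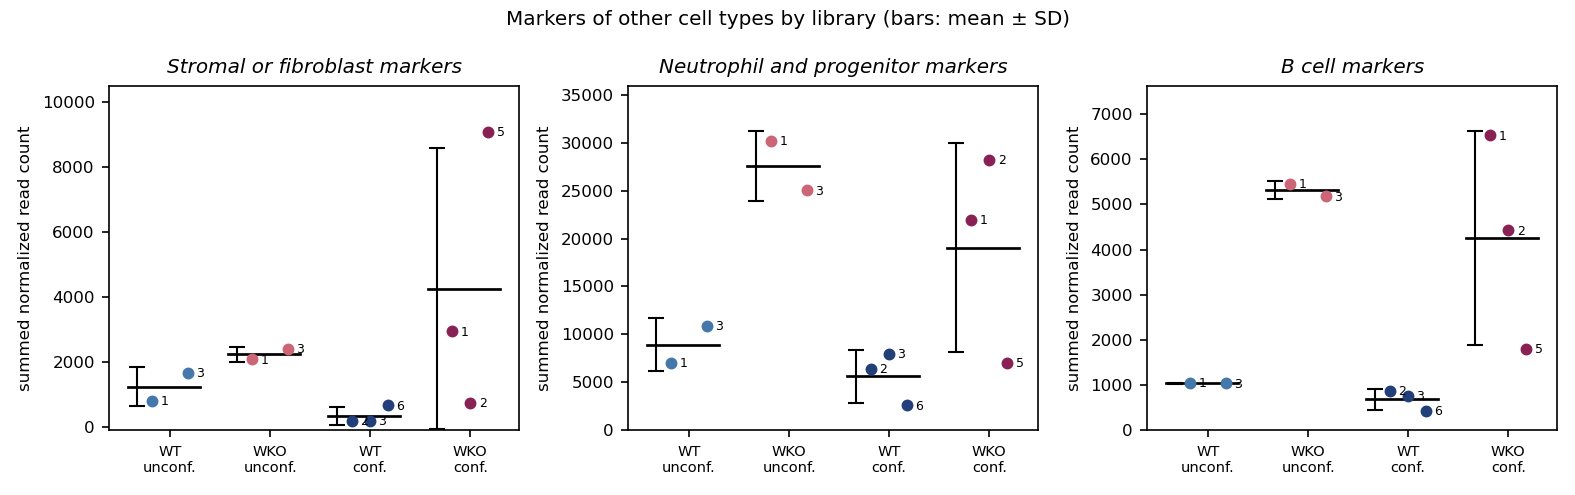
Summed normalized read count of the stromal, neutrophil and progenitor, and B cell marker lists (y axes) in each library (points, with replicate numbers) of the 4 groups (x axis); horizontal lines are means and error bars SD. WKO confined replicate 5 stands at 9078 for stromal markers and at 7015 for neutrophil and progenitor markers, apart from the other libraries of its group.

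Levels differed widely among the members. Per kb of exon, Itgb2, the beta-2 chain, was the highest at a mean of 7755 normalized reads over the 10 libraries. Next came the actin bundler plastin-2 (Lcp1, 3565), the beta-1 chain Itgb1 (3423), talin-1 (Tln1, 3261) and gelsolin (Gsn, 3128), on the same per kb scale. The lowest were focal adhesion kinase (Ptk2, 28.4) and the bundler fascin (Fscn1, 18.2). Ptk2b, which encodes the related kinase Pyk2, was read at 698 per kb. Replicates were close for most members, with a median SD on the log2 scale of 0.16 in unconfined WT, 0.061 in unconfined WKO, 0.11 in confined WT and 0.21 in confined WKO cells, against 0.16, 0.12, 0.15 and 0.27 over all 12455 genes.

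Annotation limits some of these counts. In GENCODE M21 (GRCm38), 12 of the 35 members share exon bases with another gene, and the use of strand in counting is not given in the sources used here. For Vcl, 2090 of 8191 exon bases lie opposite Ap3m1, which stood at 1266 to 1692 in the 10 libraries with log2 fold changes of -0.04 and -0.13 between WKO and WT. Ilk is uncertain because 2106 of its bases lie opposite Taf10, and Itgam shares 3450 bases on its own strand with Gm49368, which was listed at no more than 4.21. Lyn and Cttn are uncertain as well, since other genes hold near-identical copies of 30.3% and 25.9% of their longest transcripts.

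The promoters of 6 of the 7 members that passed in the comparisons below are shown because several of these genes fell together in WKO cells. The RefSeq promoter table used here (GRCm38.p6) held an entry for 25 of the 35 members, with none for the seventh, Sh3pxd2a. The 250 bases before the start site are printed 5′ to 3′ on the gene's own strand. Capitals mark a CArG box, the site of serum response factor, or the PU.1-type letters GAGGAA on either strand (which read TTCCTC when reversed). The regions are chr14:20929148-20929397 (plus strand) for Vcl, chr4:43562584-43562833 (minus) for Tln1, chr12:80260364-80260613 (minus) for Actn1, chr7:128129300-128129549 (plus) for Itgax, chr5:142960105-142960354 (plus) for Fscn1 and chr2:102901666-102901915 (minus) for Cd44. Each ends at the base before the gene's RefSeq start, and part of the Actn1 window lies opposite an exon of Gm47766.
Vcl: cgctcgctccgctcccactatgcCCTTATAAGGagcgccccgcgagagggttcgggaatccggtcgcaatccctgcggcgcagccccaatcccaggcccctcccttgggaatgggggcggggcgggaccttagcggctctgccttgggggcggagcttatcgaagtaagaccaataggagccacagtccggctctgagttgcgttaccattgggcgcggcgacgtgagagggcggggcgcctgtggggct
Tln1: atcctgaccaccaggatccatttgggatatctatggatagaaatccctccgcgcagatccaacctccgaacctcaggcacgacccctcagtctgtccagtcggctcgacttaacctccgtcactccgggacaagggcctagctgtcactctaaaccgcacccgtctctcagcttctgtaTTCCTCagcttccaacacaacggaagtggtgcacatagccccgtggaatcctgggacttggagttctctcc
Actn1: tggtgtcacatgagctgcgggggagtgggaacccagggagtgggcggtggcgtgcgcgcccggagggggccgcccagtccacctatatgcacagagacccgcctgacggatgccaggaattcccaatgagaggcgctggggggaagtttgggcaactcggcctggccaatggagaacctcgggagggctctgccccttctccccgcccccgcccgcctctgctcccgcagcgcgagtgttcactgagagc
Itgax: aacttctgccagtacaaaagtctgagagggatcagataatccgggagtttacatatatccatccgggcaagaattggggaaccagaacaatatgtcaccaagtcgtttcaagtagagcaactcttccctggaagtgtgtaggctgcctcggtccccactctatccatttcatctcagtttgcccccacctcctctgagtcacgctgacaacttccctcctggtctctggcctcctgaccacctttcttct
Fscn1: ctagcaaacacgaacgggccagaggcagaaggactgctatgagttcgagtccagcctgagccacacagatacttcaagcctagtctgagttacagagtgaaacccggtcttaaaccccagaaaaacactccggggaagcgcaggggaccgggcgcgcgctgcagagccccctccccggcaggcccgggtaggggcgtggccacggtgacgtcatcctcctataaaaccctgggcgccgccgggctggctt
Cd44: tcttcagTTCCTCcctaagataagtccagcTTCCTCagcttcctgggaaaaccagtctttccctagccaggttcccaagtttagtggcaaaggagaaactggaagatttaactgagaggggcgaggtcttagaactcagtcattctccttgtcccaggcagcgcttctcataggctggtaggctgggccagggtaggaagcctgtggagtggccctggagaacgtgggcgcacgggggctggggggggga
Some members have several windows, 30 in all for the 25. A CArG box was found in 1 of these 30 windows, that of Vcl, where CCTTATAAGG begins 227 bases before the start. Of the 32851 RefSeq windows of this length, 1.47% held one. GAGGAA was found in 9 of the 30 windows, from 9 genes (Cd44, Gsn, Itga5, Itgam, Itgav, Itgb1, Parvg, Src and Tln1), and in 23.3% of all windows. In Cd44 it begins 243 and 220 bases before the start and in Tln1 71 bases before it. A match is a run of letters only, and the motifs do not overlap each other in these windows.

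The first question was how loss of WASp altered these genes. Vcl, Actn1, Tln1 and Itgax were lower and Fscn1 higher in WKO cells, and the other members did not pass limma's test. Each difference was tested with limma over all 12455 genes, with Benjamini-Hochberg adjusted p under 0.05 as the threshold and fold changes on the log2(value + 1) scale. In unconfined cells 1 of 35 members passed (Vcl, lower), where 0.145% of all genes passed (0.0963% lower). In confined cells 4 passed (Vcl, Actn1 and Tln1 lower, Fscn1 higher), where 2.59% of all genes did (1.2% lower, 1.38% higher). With both conditions averaged at equal weight, 5 passed (Itgax joined the lower ones), where 5.57% of all genes did (2.67% lower, 2.9% higher). By edgeR the same members passed, with Lcp1 added (averaged, lower). DESeq2 passed all of these and added Itgax (lower) in unconfined cells, Itgax and Lcp1 (lower) and Itga9, Itgb5 and Lyn (higher) in confined cells, and Itgb1, Itgb2, Lcp1, Ptk2 and Zyx (lower) and Lyn (higher) in the average. Of all genes DESeq2 called 1.47% in the unconfined, 6.25% in the confined and 9.23% in the averaged comparison. Statements below that a member passed or did not are by limma unless another tool is named. Leaving out 1 library at a time changed the limma counts to 0 to 2, 1 to 8 and 3 to 11. The 8 and the 11 were reached without WKO confined replicate 1, where 5.63 and 8.95% of all genes passed. With no filter on low values, or with no mean-variance trend, the confined call was left for Vcl alone and the averaged call for Vcl, Actn1 and Itgax. With the confined libraries fitted alone, the confined calls of Actn1, Tln1 and Fscn1 were lost, while Vcl held and Itga9 passed (higher).

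Most members lay on the lower side without passing. In the averaged comparison 25 of 35 fold changes were below 0, against 49.3% of all genes, and their median was -0.14, against 0.00 over all genes. The sign was the same in unconfined and confined cells for 30 of the 35. All 5 WKO libraries lay below all 5 WT libraries for 6 members (Vcl, Tln1, Actn1, Actn4, Lcp1 and Ptk2b) and above them for 2 (Fscn1 and Lyn). Such separation was seen for 3.33% of all genes in the lower and 3.38% in the higher direction.

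**Figure D2:**
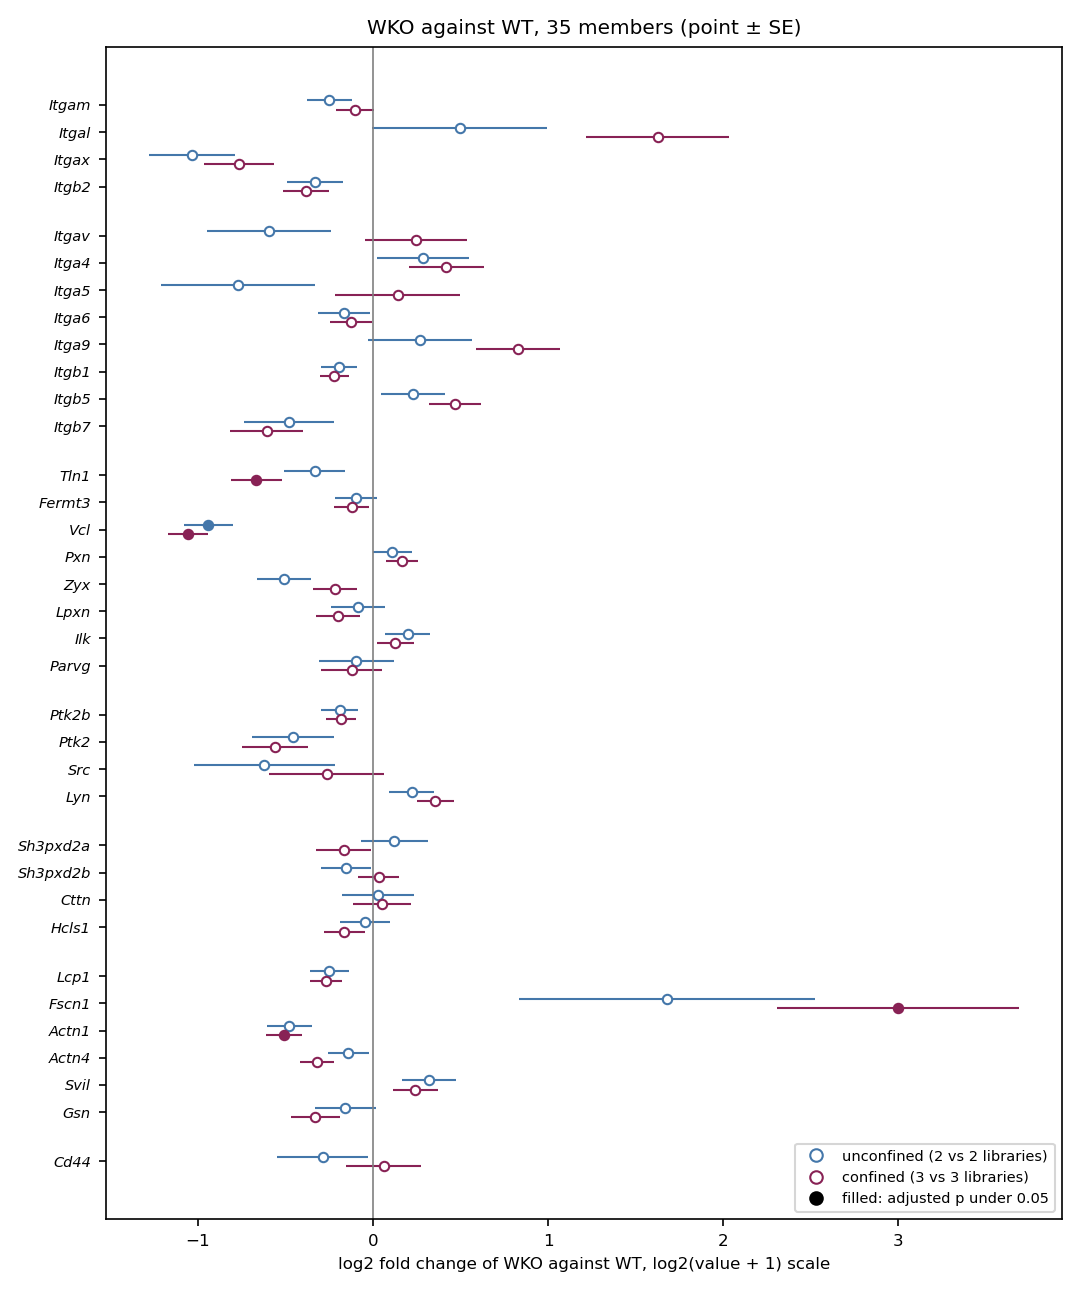
Log2 fold change of WKO against WT (x axis, log2(value + 1) scale) for the 35 members, grouped by role (y axis), in unconfined (blue) and confined (purple) cells; points are estimates, bars SE, and filled points have an adjusted p under 0.05. Vcl is the member filled in both conditions, and Fscn1 lies farthest to the right at 1.68 and 3.00.

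Vcl, which encodes vinculin, had the smallest p of the 35 members in the averaged comparison. It was read at 2366 and 2465 in the WT unconfined libraries and at 1226 and 1296 in the WKO unconfined ones. In confined cells Vcl was 2543, 2425 and 2602 in WT and 1054, 1193 and 1422 in WKO libraries. The 5 WKO values all lay below the 5 WT values, and WKO means were 52.2% and 48.5% of WT means in unconfined and confined cells. On the log2 scale WKO differed from WT by -0.94 (SE 0.14, adjusted p 0.0346) in unconfined cells, -1.05 (SE 0.11, adjusted p 0.00141) in confined cells and -0.996 (SE 0.091, adjusted p 0.000274) over both. The confined and averaged calls held in every alternative run, the latter with adjusted p of at most 0.00727. The unconfined call held without WKO confined replicate 1 or 5, and leaving out any other single library raised its adjusted p to between 0.0530 and 0.315.

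Tln1, which encodes vinculin's partner talin-1, and Actn1, which encodes the cross-linker alpha-actinin-1, were lower too. Tln1 was read at 40587 and 29641 in unconfined WT, 27952 and 27178 in unconfined WKO, 42305, 39414 and 37019 in confined WT and 27638, 27216 and 20641 in confined WKO cells. WT unconfined replicate 3 lay near the WKO values, yet no WKO library reached a WT one. Its log2 fold change was -0.33 (SE 0.18, adjusted p 0.610) in unconfined cells, -0.66 (SE 0.14, adjusted p 0.0337) in confined cells and -0.50 (SE 0.11, adjusted p 0.0269) over both. The confined call was lost, with adjusted p of 0.0661 to 0.138, without any 1 of the WKO unconfined or WT confined libraries. The averaged call was lost without WT unconfined replicate 1, either WKO unconfined library, or WT confined replicate 2 or 3, with adjusted p of 0.0615 to 0.130.

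Actn1 was read at 6294 and 5575 in unconfined WT, 4069.6 and 4459.8 in unconfined WKO, 5806, 5636 and 6481 in confined WT and 4617, 3913 and 4109.8 in confined WKO cells. The groups did not overlap in either condition, and the WKO means were 71.9% and 70.5% of the WT means. Its log2 fold change was -0.48 (SE 0.13, adjusted p 0.198) in unconfined cells, -0.50 (SE 0.10, adjusted p 0.0270) in confined cells and -0.49 (SE 0.082, adjusted p 0.00613) over both. The averaged call held in all alternatives. The confined one was lost without either WKO unconfined library, any WT confined library or WKO confined replicate 2, with adjusted p of 0.0528 to 0.110.

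The other proteins of the adhesion plaque differed less. Zyx, which encodes the actin-assembly adaptor zyxin, had an averaged log2 fold change of -0.36 (SE 0.10, adjusted p 0.0609) and ranged from 2299 to 3056 in WT and from 1788 to 2406 in WKO libraries. Fermt3, the blood-cell kindlin, had -0.11, the paxillin-related adaptor leupaxin (Lpxn) -0.14 and gamma-parvin (Parvg) -0.11. Paxillin (Pxn) and integrin-linked kinase (Ilk) lay on the other side at 0.14 and 0.16, and none of these 6 passed.

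Among the beta-2 integrins the alpha chain Itgax, the CD11c chain of macrophages and dendritic cells, was lower in WKO cells. Its values were 5385 and 6294 in unconfined WT, 2661 and 3044 in unconfined WKO, 5790.4, 5541 and 3439 in confined WT and 3458, 2911 and 2237 in confined WKO cells. WT confined replicate 6 lay just under the highest WKO library, so the groups overlapped in confined cells, while in unconfined cells they did not. The log2 fold change was -1.03 (SE 0.24, adjusted p 0.130) in unconfined cells, -0.76 (SE 0.20, adjusted p 0.0683) in confined cells and -0.90 (SE 0.16, adjusted p 0.00773) over both, and the averaged call held in all alternatives. Itgal, the alpha chain of the leukocyte receptor LFA-1, was higher on average but did not pass, at 1.06 (SE 0.32, adjusted p 0.0824). It was read at 490.2 and 776 in unconfined WT, 1148 and 659.7 in unconfined WKO, 569.9, 571 and 165 in confined WT and 1252, 1323 and 965 in confined WKO cells. Itgam, the Mac-1 alpha chain, had -0.17 (SE 0.084, adjusted p 0.272), and the shared beta chain Itgb2 had -0.36 (SE 0.10, adjusted p 0.0693), with 5601 to 9518 reads per kb in single libraries.

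As a share of the 3 alpha chains per kb, Itgax made up 66.5 and 65.8% in unconfined WT, 65.8, 61.9 and 57.0% in confined WT, 47.9 and 53.2% in unconfined WKO and 51.5, 44.8 and 40.9% in confined WKO cells. Itgal made up 4.43 and 5.93%, 4.73, 4.67 and 2.01%, 15.1 and 8.43% and 13.6, 14.9 and 12.9% in the same order of groups. Neither share overlapped between the 5 WT and the 5 WKO libraries, and both are descriptions with no test. The Itgam count is uncertain, since 3450 of its 5024 exon bases are shared with Gm49368 on the same strand. Shares that include Itgam are uncertain to the same extent. Neutrophil and B cell markers, whose cells also carry Itgal, were higher in WKO libraries too (values above), apart from the neutrophil list in confined replicate 5, and their part in the shares was not tested.

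**Figure D3:**
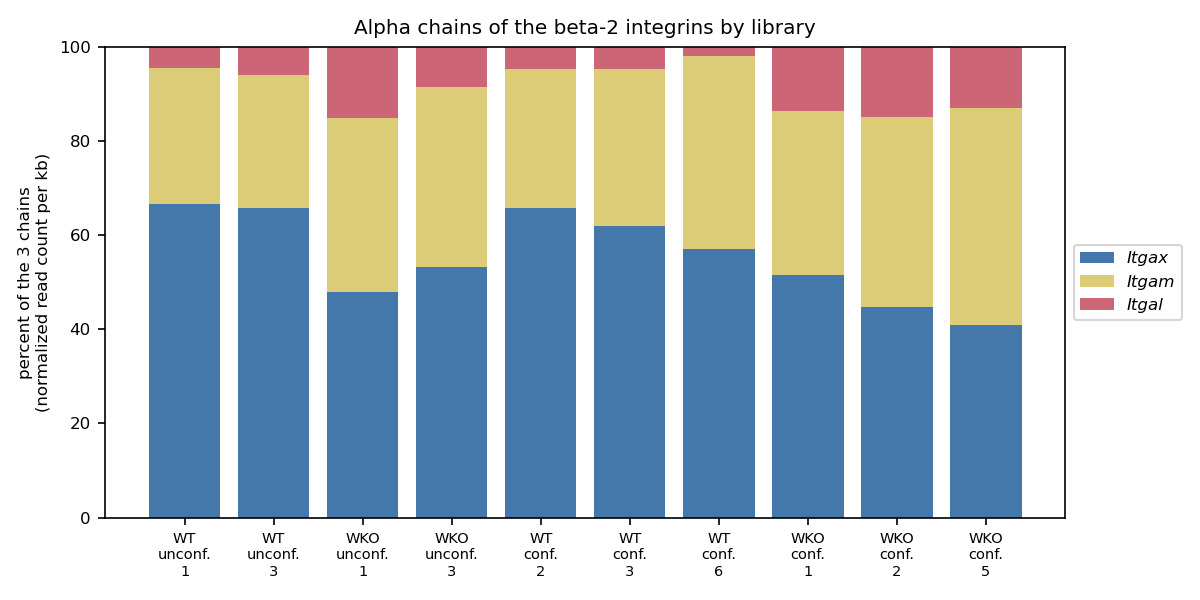
Percent of the summed normalized read count per kb of Itgax, Itgam and Itgal (y axis, stacked bars) in each of the 10 libraries (x axis, group and replicate number). Itgax takes 57.0% to 66.5% of the bar in WT and 40.9% to 53.2% in WKO libraries. The Itgam part is uncertain because Itgam shares exon bases with Gm49368.

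By limma 0 of the other 8 integrin chains passed between genotypes. In the average 4 had an unadjusted p under 0.05, as did 20.2% of all genes. DESeq2 called Itga9, Itgb5 and Itgb1 (given above). Itgb7, whose chain pairs with Itga4 in the gut-homing receptor, was 200.4 and 195 in unconfined WT, 188 and 106 in unconfined WKO, 194, 165 and 178 in confined WT and 120.04, 115 and 116 in confined WKO cells, with an averaged log2 fold change of -0.54 (SE 0.17, adjusted p 0.0845). The fibronectin receptor chains Itga5 and Itgb1 had -0.31 and -0.21, the laminin receptor chain Itga6 -0.14 and the vitronectin receptor chain Itgav -0.17. For Itga5 and Itgav the average joins opposite directions. WKO means were 58.2% and 62.1% of WT means in unconfined cells, but 125% for each in confined cells. WKO confined replicate 5 was the highest library for both. Itga4, Itga9 and Itgb5 lay above 0, at 0.35, 0.55 and 0.35. The smallest adjusted p among the 8 was 0.0845.

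By limma 0 of the 4 kinases passed (3 at an unadjusted p under 0.05 in the average, as did 20.2% of all genes). DESeq2 called Lyn higher and Ptk2 lower. Ptk2 had an averaged log2 fold change of -0.51 (SE 0.15, adjusted p 0.0752) and Src of -0.44 (SE 0.26, adjusted p 0.373). Lyn, the Src-family kinase that was higher in every WKO library than in any WT one, was 2976 to 3537 in WT and 3710.5 to 4567 in WKO libraries (0.29, SE 0.084, adjusted p 0.0695). Ptk2b was 5224 to 5661 in WT and 4730.1 to 5125 in WKO libraries (-0.18, SE 0.067, adjusted p 0.145).

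None of the 4 podosome scaffold and core genes passed between genotypes. Averaged log2 fold changes were -0.02 for Sh3pxd2a and -0.06 for Sh3pxd2b, the scaffolds Tks5 and Tks4, and 0.04 for cortactin (Cttn) and -0.10 for its blood-cell relative HS1 (Hcls1). Their 95% intervals ran from -0.30 to 0.10 for Hcls1 and from -0.25 to 0.33 for Cttn.

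Fscn1 was the member that rose. Fascin packs actin into tight parallel bundles and is best known from mature dendritic cells and fibroblasts. It was read at 23.7 and 27.8 in unconfined WT, 101 and 71.2 in unconfined WKO, 2.14, 15.3 and 20.1 in confined WT and 95.7, 34.7 and 157 in confined WKO cells. The WT confined replicate 2 value is 2 reads, under the 3-read floor of 3.21 in that library, and all 5 WKO libraries lay above all 5 WT libraries. The log2 fold change was 1.68 (SE 0.85, adjusted p 0.581) in unconfined cells, 3.00 (SE 0.69, adjusted p 0.0438) in confined cells and 2.34 (SE 0.55, adjusted p 0.0296) over both, on a scale that understates changes at such low values. The confined call held without WT confined replicate 6 or WKO confined replicate 2 and was lost without any other single library, with adjusted p of 0.0645 to 0.107. The averaged call was lost without any 1 of the 4 unconfined libraries, with adjusted p of 0.0784 to 0.120.

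Markers of the cells known for fascin were set beside it. From the highest Fscn1 value to the lowest, WT stromal sums were 1672, 812, 664, 174 and 183. WKO stromal sums in the same order were 9078, 2074, 2939.7, 2388 and 746. The stromal list was highest in WKO confined replicate 5, where Fscn1 was highest, at 9078 against 174 to 2939.7 elsewhere. In WKO confined replicate 2 the stromal list was 746, under the 812 and 1672 of unconfined WT, and Fscn1 was higher in that WKO library. The 4 dendritic cell markers summed to 10.4 to 45.1 in WT and 60.4 to 127 in WKO libraries, with Xcr1 at 0 in all libraries. Among them Zbtb46 overlapped, at 3.84 to 23.6 in WT and 3.92 to 38.3 in WKO libraries. Its 23.6 was in WT confined replicate 2, where Fscn1 was lowest. Without WKO confined replicate 5 the averaged log2 fold change of Fscn1 was 2.10 (adjusted p 0.0289). The part of these cells in the difference was not tested.

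The remaining cross-linkers did not pass by limma, while edgeR, DESeq2 and limma with TMM scaling called Lcp1 lower in the average. Lcp1 was 33808 to 39552 in WT and 28639.5 to 33587 in WKO libraries, without overlap (-0.26, SE 0.072, adjusted p 0.0608). Actn4, the other non-muscle alpha-actinin, was also separate, with -0.23 (SE 0.077, adjusted p 0.110). The actin-severing protein gelsolin (Gsn) had -0.24 (SE 0.11, adjusted p 0.250) and supervillin (Svil), a membrane-linked actin binder, 0.28 (SE 0.10, adjusted p 0.131).

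**Figure D4:**
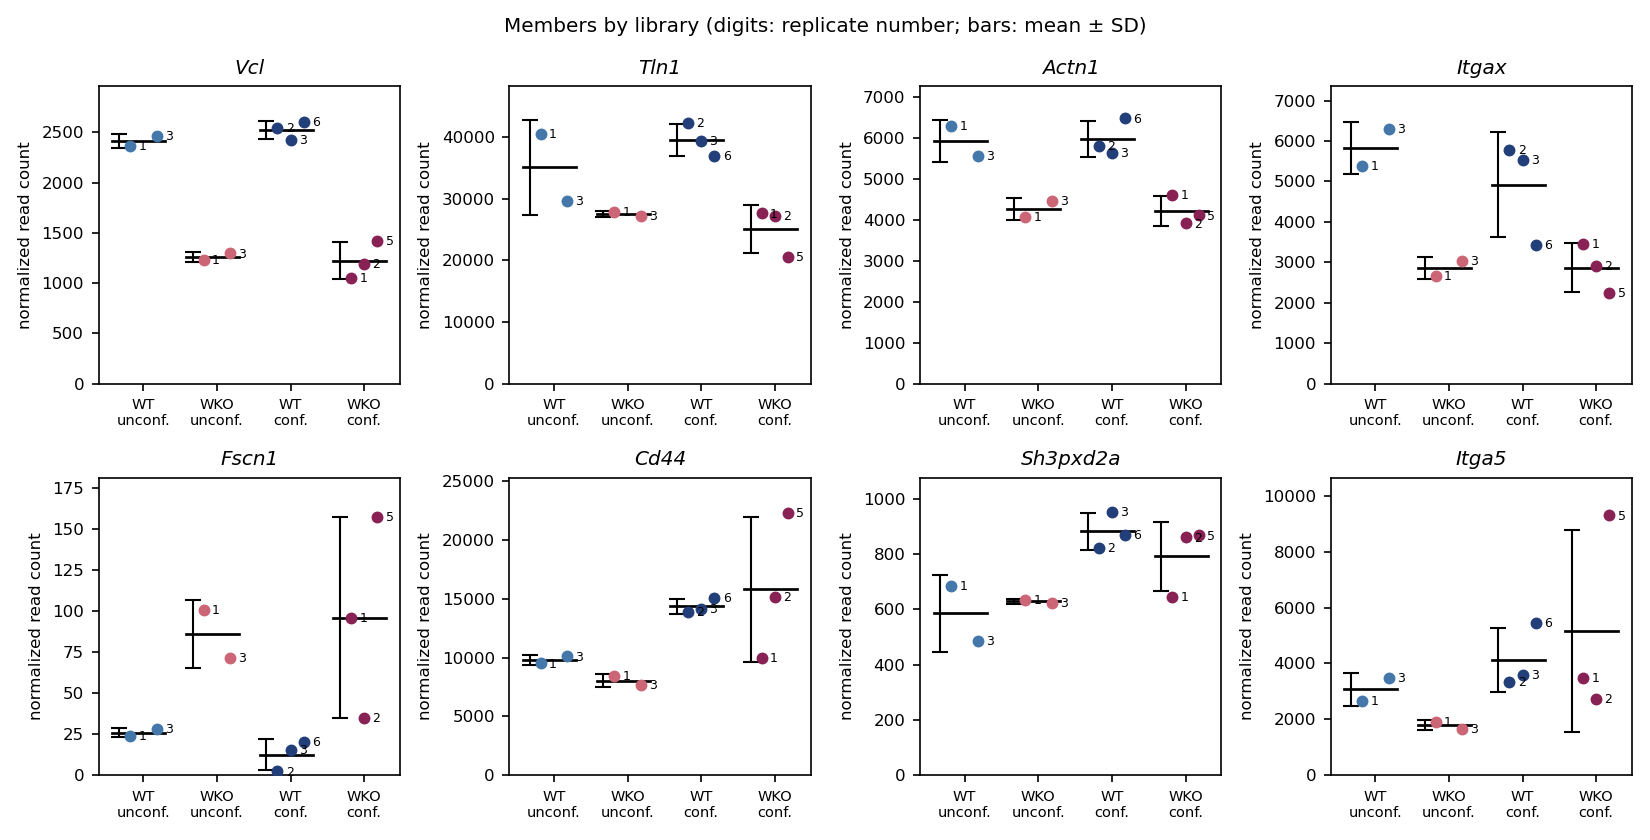
Normalized read count (y axes) in each library (points, with replicate numbers) of the 4 groups (x axis) for the 7 members that passed in at least 1 comparison and for Itga5; horizontal lines are means and error bars SD. The WKO points lie below the WT points for Vcl, Tln1 and Actn1 and above them for Fscn1, while WKO confined replicate 5 stands highest for Cd44 and Itga5.

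A wider list of 86 adhesion genes, also chosen with earlier results of these data known, held 73 with a mean of at least 10. Among those named below, Adam8, Cd9, Cd81, Icam1, Itgad, Rasgrp2, Thbs1 and Vcam1 share exon bases with another annotated gene, which leaves their counts uncertain. Between genotypes 0 of the 73 passed in unconfined cells (8 at an unadjusted p under 0.05, as did 9.6% of all genes), 6 or 8.22% in confined cells (2.59% of all genes) and 10 or 13.7% in the average (5.57% of all genes), 5 higher and 5 lower (2.9% and 2.67% of all genes). The lower ones were the beta-3 chain Itgb3 (-0.49, SE 0.12, adjusted p 0.0299), the actin cross-linker filamin A (Flna, -0.54, SE 0.096, adjusted p 0.00780), the Rac exchange factor beta-PIX (Arhgef7, -0.42, SE 0.090, adjusted p 0.0217), the protease Adam8 (-0.36) and the tetraspanin Cd9 (-0.55). Flna was read at 35703 and 29821 in unconfined WT, 24062 and 25169 in unconfined WKO, 38824, 35297 and 35679 in confined WT and 24258, 25393 and 19396 in confined WKO cells, and no WKO library reached a WT one. The higher ones were the matrix protease Mmp14 (1.43, SE 0.30, adjusted p 0.0177), the adhesion ligand Vcam1 (1.08, SE 0.13, adjusted p 0.00139), the actin regulator caldesmon (Cald1, 1.68, SE 0.39, adjusted p 0.0296), the platelet chain Itga2b (1.90) and thrombospondin-1 (Thbs1, 0.85). Mmp14, Cald1 and Thbs1 are also genes of stromal cells; in WKO confined replicate 5, Cald1 was 634 and Mmp14 1011, against 128 and 333 in replicate 2, and the part of stromal cells was not tested.

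The second question was what 1 h of confinement did. With genotypes averaged, Cd44 and Sh3pxd2a were higher in confined cells and the other 33 members did not pass. These are 2 of 35 members, or 5.71%, where 6.21% of all genes passed (4.13% higher), so the count was near the background. Both calls were lost with no filter on low values and with no mean-variance trend, and that of Sh3pxd2a also with upper-quartile scaling and without WKO confined replicate 5 and WT confined replicate 6 together (adjusted p 0.0885). In WT cells alone 0 of 35 passed in limma (2 at an unadjusted p under 0.05, as did 12.2% of all genes), which called 1.16% of all genes. There 0 also passed in edgeR and DESeq2, which called 0.931% and 2.68% of all genes. In WKO cells alone 0 passed in limma (4 unadjusted, as did 14.1% of all genes), which called 1.72% of all genes. EdgeR passed 0 there, with 1.49% of all genes called, and DESeq2 passed 1 (Cd44, higher), with 3.9% called. Median log2 fold changes of the members were 0.01 in WT and 0.02 in WKO cells, against -0.01 and -0.01 over all genes. The WT and WKO comparisons use separate libraries.

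**Figure D5:**
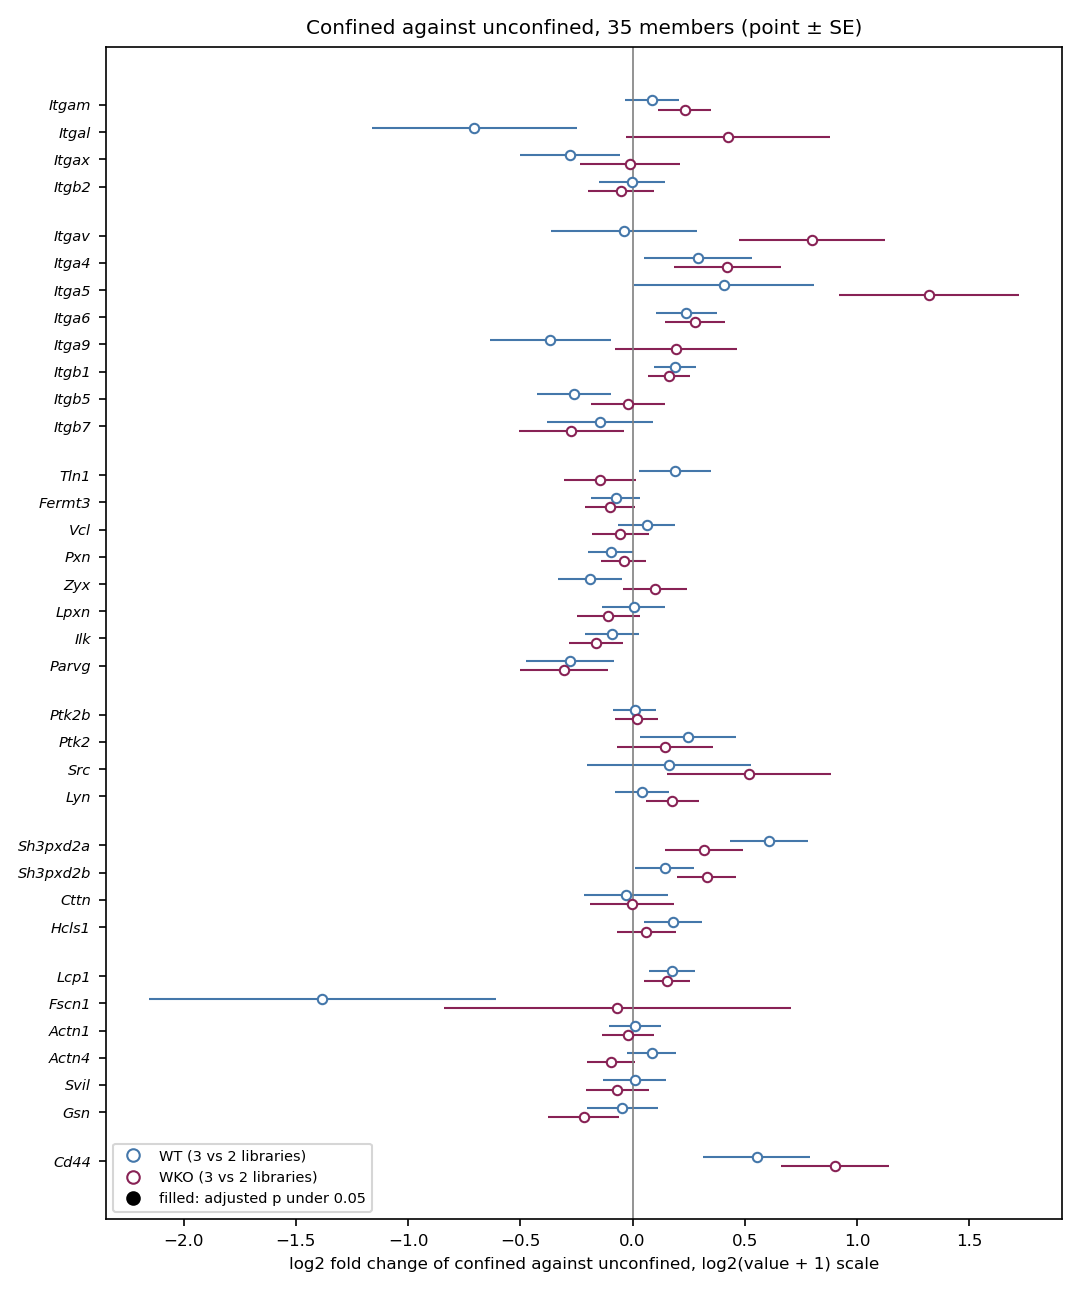
Log2 fold change of confined against unconfined cells (x axis, log2(value + 1) scale) for the 35 members, grouped by role (y axis), in WT (blue) and WKO (purple); points are estimates and bars SE, and no point is filled because no member passed within 1 genotype. Cd44 lies to the right of 0 in both, at 0.55 and 0.90, and Itga5 of WKO farthest right at 1.32 (0.79 without WKO confined replicate 5).

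Cd44 binds hyaluronan in the matrix and is found in podosomes. It was read at 9498 and 10089 in unconfined WT, 8409 and 7659 in unconfined WKO, 13851, 14139.5 and 15103 in confined WT and 9986, 15152 and 22283 in confined WKO cells. All 3 WT confined libraries lay above the WT unconfined ones, and the WKO confined libraries lay above the WKO unconfined ones but differed among themselves, replicate 5 being the highest. The log2 fold change of confinement was 0.55 (SE 0.24, adjusted p 0.381) in WT, 0.90 (SE 0.24, adjusted p 0.0967) in WKO and 0.73 (SE 0.17, adjusted p 0.0272) over both. Without WKO confined replicate 5, whose stromal markers were high, it was 0.58 (adjusted p 0.00482), and without replicate 1 0.87 (adjusted p 0.000537). Leaving out any other single library ended the call, with adjusted p of 0.0545 to 0.116.

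Sh3pxd2a encodes Tks5, the scaffold that Src phosphorylates in podosomes and invadopodia. It was read at 684 and 488 in unconfined WT, 634 and 624 in unconfined WKO, 824, 955 and 869 in confined WT and 646, 861 and 869 in confined WKO cells. The WT confined libraries lay above the WT unconfined ones, and WKO confined replicate 1 lay at the level of the unconfined libraries. Its log2 fold change was 0.61 (SE 0.17, adjusted p 0.151) in WT, 0.32 (SE 0.17, adjusted p 0.433) in WKO and 0.46 (SE 0.12, adjusted p 0.0471) over both. The averaged call held without WT unconfined replicate 1 or WKO confined replicate 1, and was lost without any other library, with adjusted p of 0.0552 to 0.184. Its relative Sh3pxd2b had 0.14 (SE 0.13, adjusted p 0.715) in WT and 0.33 (SE 0.13, adjusted p 0.278) in WKO cells.

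Itga5, the alpha chain of the main fibronectin receptor, followed by p without passing. It was read at 2655 and 3483 in unconfined WT, 1908 and 1664 in unconfined WKO, 3345, 3593 and 5441 in confined WT and 3468, 2721 and 9312 in confined WKO cells. The log2 fold change was 0.41 (SE 0.40, adjusted p 0.745) in WT, 1.32 (SE 0.40, adjusted p 0.154) in WKO and 0.86 (SE 0.28, adjusted p 0.0995) over both, and WKO confined replicate 5 stood apart again. Without that replicate the WKO value was 0.79 (adjusted p 0.0999) and the averaged one 0.60 (adjusted p 0.0241). Its partner Itgb1 had 0.19 (SE 0.093, adjusted p 0.460) in WT and 0.16 (SE 0.093, adjusted p 0.463) in WKO cells. For Vcl, Tln1 and Actn1, all lower in WKO cells, averaged confinement effects were 0.0041, 0.02 and -0.0049. Their 95% intervals were no wider than -0.22 to 0.27. The Tln1 average joins opposite directions. Its mean was 35114 in unconfined and 39580 in confined WT, and 27565 in unconfined and 25165 in confined WKO cells.

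In the wider list, averaged confinement raised 4 of 73 genes and lowered 4, where 4.13% of all genes were called higher and 2.07% lower (6.21% in all). Icam1, the ligand of beta-2 integrins (1.59, SE 0.31, adjusted p 0.0121), Thbs1 (1.00, SE 0.21, adjusted p 0.0158), the phosphatase gene Ptprj (0.45) and the tetraspanin Cd81 (0.62) were higher. Vcam1, the ligand of Itga4 with Itgb1 (-0.81, SE 0.13, adjusted p 0.00419), the kinase Fgr (-0.89), the Rap1 activator Rasgrp2 (-1.17) and the alpha chain Itgad (-1.33) were lower. Among confined libraries, Fgr, Rasgrp2 and Itgad were lowest in WT replicate 6 and WKO replicate 5 within their genotypes. The neutrophil and progenitor marker sum was lowest in the same libraries, and the part of those cells was not tested. Icam1 was read at 927 and 1019 in unconfined WT, 930.3 and 936 in unconfined WKO, 2054, 2397 and 3089.7 in confined WT and 2541, 1832 and 7992 in confined WKO cells, and every confined library lay above every unconfined one. In WT cells alone 1 of 73 passed, Vcam1 (-0.92, SE 0.19, adjusted p 0.0417), a share of 1.37% against 1.16% of all genes. In WKO cells alone 0 passed by limma, where 1.72% of all genes did (unadjusted, 11 of 73, where 14.1% of all genes had such a p).

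The last comparison asked whether confinement acted differently in WKO and WT cells. By limma 0 of 35 members passed, with 0 at an unadjusted p under 0.05, and 0 of 12455 genes passed, or 0.0%, with 258 or 2.07% unadjusted. EdgeR and DESeq2 also called 0 members. The smallest p among members belonged to Itgav, with a difference of 0.84 (SE 0.46, adjusted p 0.999), then Itgal, with 1.13 (SE 0.65, adjusted p 0.999), and Itga5, with 0.91 (SE 0.57, adjusted p 0.999). Single libraries moved these values: the difference of Itgav was 0.30 without WT unconfined replicate 3, 1.38 without WT unconfined replicate 1 and 0.56 without WKO confined replicate 5. That of Itgal was 0.54 without WT confined replicate 6 and 0.73 without WKO unconfined replicate 3, and that of Itga5 0.38 without WKO confined replicate 5. The 95% intervals of the difference were 0.58 to 4.77 wide on the log2 scale, with a median of 0.90, so differences well inside such intervals were not detectable with 2 or 3 libraries a group. For Vcl the interval ran from -0.51 to 0.28.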

How the data were processed

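Polyadenylated RNA of 10 libraries was measured (5 ng of total RNA each, per the labels' protocols). Trimming with Trim Galore, alignment with STAR, FastQC and the build GRCm38/mm10 are named in the submitters' processing notes, without versions. The counting tool, annotation and use of strand are not given in the sources used here. The authors deposited these data as 1 table whose unit is a signal, the read count of a gene in a library after scaling. In each library 100% of the deposited values above 0 were whole multiples (tolerance 1e-06) of the value of 1 read, so the counts behind them were recovered for count tests. This scaling removes differences in depth, not in composition, GC content or length. Reads without molecular identifiers are not independent molecules, so floors cover counting error only.

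Log2(value + 1) was tested with limma 3.58.1 in R 4.3.3, for 12455 genes with a mean of at least 10, with 1 mean per group over all 10 libraries (6 residual degrees of freedom) and a mean-variance trend. Benjamini-Hochberg adjustment ran over all tested genes of each of the 7 contrasts. EdgeR 4.0.16 (quasi-likelihood), DESeq2 1.42.0, other scalings, filters, weights and left-out libraries were alternatives. Members passing in at least 1 contrast, or the 3 with the smallest p where fewer passed, are given in full. The members, the wider list and the markers were chosen with earlier results of these data known. Of the table's identifiers, 4981 are absent from GENCODE M21. No library was left out, and no replicates agreed within sampling noise.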

Additional observations from a re-analysis of the deposited data

How the results depend on the processing

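Members passing in the unconfined genotype, confined genotype and averaged genotype comparisons numbered 1, 4 and 5. Of all genes 0.145, 2.59 and 5.57% passed there, and percentages in brackets below are such shares of all genes under the named setting. DESeq2 (Wald test) gave 2, 9 and 11 members (1.47, 6.25 and 9.23%). No filter on low values gave 0, 1 and 3 (0.0424, 0.788 and 1.86%). No mean-variance trend gave 0, 1 and 3 (0.0321, 0.426 and 2.89%). Array weights gave 2, 17 and 19 (1.33, 15.6 and 14.5%). GC and length correction gave 10 in the confined and 12 in the averaged comparison (5.42 and 10.1%). With the groups of the contrast alone, 3 unconfined members (Itga5, Itgax and Vcl, lower) and 2 confined ones (Vcl lower, Itga9 higher) passed (1.52 and 0.723%). The confined calls of Actn1, Tln1 and Fscn1 were lost there. For confinement in WT, WKO and on average, where 0, 0 and 2 passed, array weights gave 1, 6 and 7 (3.36, 13.9 and 17.8%). In WT, 1 passed with the groups of the contrast alone (3.65%). In WKO, 1 passed with DESeq2 (3.9%) and 1 with GC and length correction (2.57%). On average, 1 passed with upper-quartile scaling (6.73%), and 0 with no filter (2.26%) or with no trend (3.4%). Upper-quartile scaling moved the median of all genes in the averaged confinement comparison from -0.02 to -0.10 and the split of calls from 515 higher and 258 lower to 392 and 446. Leaving out 1 library at a time gave 0 to 2, 1 to 8 and 3 to 11 members between genotypes, and 0 to 0, 0 to 3 and 0 to 4 for confinement; the interaction stayed at 0. Leaving out WKO confined replicate 5 and WT confined replicate 6 together was chosen after seeing the data. It gave 3 unconfined and 10 averaged genotype calls and 1 for confinement in WKO (1.63, 6.36 and 1.81%). The cause of these shifts was not tested.

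Deviations of same-numbered libraries from their group means correlated at -0.11 to 0.08 over 7 pairs, and at -0.20 to 0.24 over 30 pairs of different numbers. In a group of 2 the deviations mirror each other, so few of these values are independent. They cannot exclude that the numbers pair libraries. A replicate block gave 3 members in the unconfined genotype comparison, where it raised the calls over all genes from 18 to 245. For confinement it gave 1 member in WKO and 1 on average (Itga5), beside 1.78 and 3.08% of all genes. In that average Cd44 and Sh3pxd2a did not pass (limma adjusted p 0.116 and 0.361). Over the 24 named fold changes and their 517 alternative values, 419 kept direction and side of the threshold, 78 fell short of it, 20 newly passed and 0 reversed.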
